A study of Rattus norvegicus with 36 samples.

Results

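The genes described here belong to the ubiquitin system of the rat heart. Members were the array probes whose single gene symbol begins with Ube, Usp, Rnf, Trim, Fbxo, Fbxl, Fbxw, Cul or Senp, or is Cand1 or Birc6. Usp18 was left out. Of 22523 probes on the array 217 were members, for 209 genes, and 158 of them (154 genes) were detected on at least 7 of the 36 arrays and were tested among 10956 detected probes. The members lay in the families Ube (27 probes tested), Rnf (33), Trim (24), Fbxo (15), Fbxl (8), Fbxw (6), Cul with Cand1 (7), Usp (33) and Senp (4), with Birc6 alone.

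Each array held the whole heart of 1 male Wistar Kyoto rat. All rats were Controls, that is, offspring of mothers that had sham surgery in pregnancy and kept a full litter. Later exercise rats (7) ran on a treadmill from week 20 to week 24 of life and were killed at 24 weeks. Early exercise rats ran from week 5 to week 9 and were killed at 24 weeks (8), after 15 weeks without training, or at 9 weeks (7). Sedentary rats were killed at 24 weeks (7) or at 9 weeks (7). Hearts of later exercise rats and of early exercise rats of 9 weeks were taken a few days after the last run. Litter mates went to different groups and up to 3 males came from a litter, and the labels do not say which rats were brothers.

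Ubiquitin is passed from an activating enzyme to a conjugating enzyme (most Ube genes) and then, with the help of a ligase, to a target protein. RING ligases (Rnf and Trim) hold the conjugating enzyme and the target together, whereas cullins (Cul) are scaffolds that carry a RING protein at one end and an exchangeable substrate receptor, such as an F-box protein (Fbxo, Fbxl, Fbxw), at the other. Deubiquitinases (most Usp genes) take ubiquitin off again, and Senp proteases do the same for the ubiquitin-like protein SUMO. In heart and skeletal muscle several of these ligases, such as those encoded by Trim63 and Fbxo32, are known for the breakdown of sarcomere proteins.

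The promoters of 5 members are printed, chosen after their values were seen. Fbxl5, Rnf111 and Usp5 are the members lower in later exercise that hold an NRF1 motif, Usp2 was lower there without overlap between the groups, and Ube2g2 had the largest rise among the members that passed the test. They are the 250 bases before the start site, 5′ to 3′ on the strand of the gene, from RefSeq on build GRCr8: Fbxl5 (chr14:71521349-71521598, plus strand), Rnf111 (chr8:80060985-80061234, minus strand), Usp5 (chr4:159320957-159321206, minus strand), Usp2 (chr8:53310620-53310869, plus strand) and Ube2g2 (chr20:11005061-11005310, minus strand). Capitals mark matches on either strand to an E-box (CACGTG), an ETS motif (CCGGAAG), the core of the NRF1 motif (GCGCATGCG) or a GC box (GGGCGG). They also mark a cyclic AMP response element (TGACGTCA), a CCAAT box (CCAAT), a forkhead motif (TGTTTAC) or a TATA box (TATAAA). Matches that touch or overlap run together, as those to the NRF1 core do on the 2 strands.
Fbxl5: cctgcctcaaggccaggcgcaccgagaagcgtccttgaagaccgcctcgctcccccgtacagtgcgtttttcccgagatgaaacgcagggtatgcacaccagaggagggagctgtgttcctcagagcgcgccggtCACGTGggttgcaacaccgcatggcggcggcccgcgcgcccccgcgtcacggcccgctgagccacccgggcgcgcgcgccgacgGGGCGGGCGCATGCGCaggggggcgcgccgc
Rnf111: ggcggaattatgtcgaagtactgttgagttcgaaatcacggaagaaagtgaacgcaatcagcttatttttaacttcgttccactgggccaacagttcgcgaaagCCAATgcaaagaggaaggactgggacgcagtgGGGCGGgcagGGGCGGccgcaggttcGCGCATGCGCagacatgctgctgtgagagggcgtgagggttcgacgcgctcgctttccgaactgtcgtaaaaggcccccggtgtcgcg
Usp5: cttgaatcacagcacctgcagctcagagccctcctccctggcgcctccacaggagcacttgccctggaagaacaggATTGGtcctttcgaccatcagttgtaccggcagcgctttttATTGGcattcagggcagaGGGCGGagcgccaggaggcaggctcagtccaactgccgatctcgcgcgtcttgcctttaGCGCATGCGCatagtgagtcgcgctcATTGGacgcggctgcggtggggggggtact
Usp2: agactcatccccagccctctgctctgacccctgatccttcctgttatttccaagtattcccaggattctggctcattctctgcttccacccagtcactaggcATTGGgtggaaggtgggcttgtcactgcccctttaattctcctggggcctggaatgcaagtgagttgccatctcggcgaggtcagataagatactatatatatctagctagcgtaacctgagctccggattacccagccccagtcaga
Ube2g2: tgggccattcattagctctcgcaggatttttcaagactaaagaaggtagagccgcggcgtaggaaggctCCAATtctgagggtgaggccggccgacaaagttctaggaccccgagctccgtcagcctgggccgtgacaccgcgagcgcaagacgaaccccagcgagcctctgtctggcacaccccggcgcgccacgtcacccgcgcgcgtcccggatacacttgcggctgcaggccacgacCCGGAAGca
Of the 154 member genes tested 126 had a promoter in the table. An NRF1 core lay in 3 of the 23 promoters (13%) of members lower in later exercise and in 4 of the 126 (3.17%), against 410 of 27457 promoters of all genes (1.49%). A GC box lay in 81 member promoters (64.3%) and 15 of those 23 (65.2%), against 32.4% of all. For the ETS motif the shares were 19.8% of members and 26.1% of the 23, against 7.74% of all, and for the TATA box 6.35% of members and 0 of the 23, against 13.1% of all. The CCAAT box (31.7% of members, against 34.3% of all), the E-box (3.17%, against 5.79%), the cyclic AMP response element (3.97%, against 1.7%) and the forkhead motif (2.38%, against 3.25%) were also counted. These matches describe the letters of the windows only, and binding of a factor was not measured.

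Raw signal, averaged over an array, was lowest in the later exercise group (315 to 709) and higher in the sedentary group of 24 weeks (715 to 1307), and later exercise replicates 3 and 5 were the dimmest of all 36 arrays. Probes for very long transcripts moved with the same comparison, 9 of 18 being lower and none higher in later exercise (median log2 fold change -0.40), and 4 of 61 ribosomal protein probes were higher. Of all probes tested 7.79% were lower and 4.59% higher. A length score, the mean of the very long transcripts minus that of the ribosomal protein probes on each array, ran from -4.67 to -3.84 in later exercise rats, from -4.21 to -3.79 in early exercise rats of 24 weeks and from -3.88 to -3.39 in sedentary rats of that age. At 9 weeks it ran from -4.14 to -3.79 in early exercise rats and from -3.90 to -3.47 in sedentary rats. The lowest of 15 heart muscle marker probes, 1 of 3 for Ryr2, averaged 5.81 and the highest, Tnnc1, 14.94 (mean log2, where the floor was 5.22). The 3 skeletal muscle marker probes tested averaged 5.89 (Tnnt3), 6.01 (Tnni2) and 14.75 (Ckm, which heart also expresses). After normalization the correlation between arrays was 0.964 to 0.996. In whole heart, fewer cells of a type and less RNA per cell cannot be told apart.

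In later exercise rats most of the members that changed were lower. Compared with sedentary rats of 24 weeks, 33 of 158 member probes passed an adjusted p of 0.05 in limma (20.9%, against 12.4% of all probes tested), 28 lower and 5 higher. Lower members made up 17.7%, against 7.79% of all probes, and higher members 3.16%, against 4.59%. The median log2 fold change was -0.07 over the members and -0.0089 over all probes, and 95 members lay below 0 (60.1%, against 51.9%). Lower members lay in the Usp (9 probes), Rnf (6), Cul with Cand1 (4), Fbxo (2), Fbxl (2), Senp (2) and Ube (2) families and in Birc6, whereas 3 of the 5 rises were of conjugating enzymes and no Trim or Fbxw probe passed. With the length score of each array in the model the median was -0.00063 over the members and 0.0028 over all probes.

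**Figure D1:**
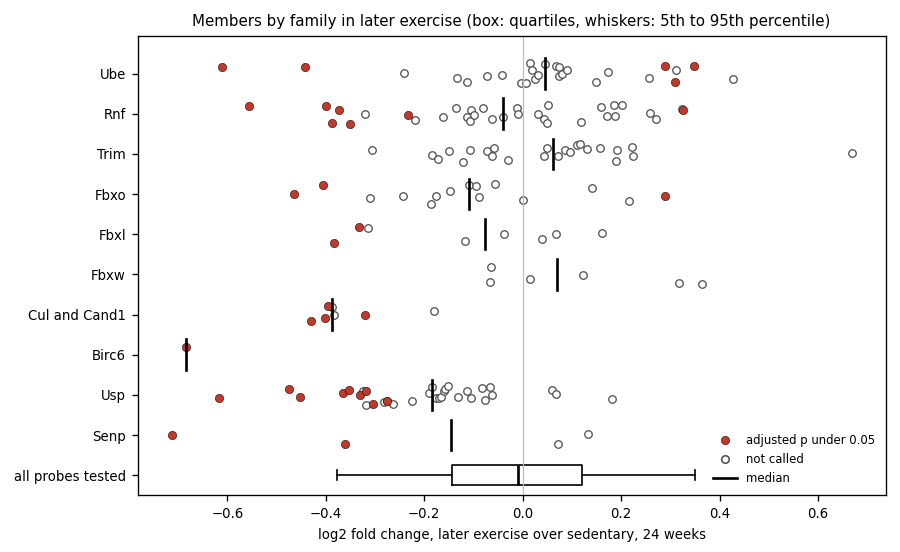
Log2 fold change of each member probe in later exercise over sedentary rats of 24 weeks (x axis), by family (rows), with filled points for adjusted p under 0.05, open points for the others and a bar at the median. The box shows all 10956 probes tested; the 7 probes of Cul and Cand1 all lie below 0, and 30 of 33 Usp probes do.

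Among the SUMO proteases, Senp6, which trims SUMO chains, gave the largest fall of all members. Senp6 was at 6.71, 6.93 and 7.42 (lowest, median and highest log2 signal) in later exercise rats, against 7.39, 7.74 and 7.92 in sedentary rats of 24 weeks. A single later exercise array reached into the range of the sedentary rats. The fold was 0.610 (log2 -0.71, standard error 0.11, adjusted p = 7.21e-05), and within the chips that the labels number 1, 2 and 3 the log2 fold change was -0.76, -0.58 and -0.86. Senp7, a second protease of SUMO chains, was also lower (fold 0.779, adjusted p = 0.0181), with 6 of 7 later exercise arrays above the detection limit. The other Senp members tested, Senp2 (log2 0.07, standard error 0.17) and Senp3 (0.13, standard error 0.15), did not pass.

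Birc6, a giant inhibitor of apoptosis with a conjugating domain of its own, came next. Birc6 was at 7.01, 7.63 and 7.99 in later exercise rats, against 7.72, 8.37 and 8.84 in sedentary rats of 24 weeks. The ranges overlapped through 1 low sedentary array. The fold was 0.623 (log2 -0.68, standard error 0.13, adjusted p = 0.00085), with -0.65, -0.51 and -0.72 on the 3 chips.

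Of 27 Ube probes 2 were lower and 3 higher. Ube4a, which lengthens ubiquitin chains, was at 8.85, 9.21 and 9.32 in later exercise rats, against 9.50, 9.56 and 10.18 in sedentary rats of 24 weeks, so that the groups did not overlap (fold 0.655, log2 -0.61, standard error 0.10, adjusted p = 0.000228). Ube2v2, an inactive partner of the conjugating enzyme Ube2n, was detected on only 3 of 7 later exercise arrays, against 7 of 7 sedentary arrays, and its fold of 0.736 (adjusted p = 0.0133) therefore rests on values near the floor. The higher members were Ube2g2 and Ube2j2, both conjugating enzymes of endoplasmic reticulum-associated degradation, and Ube2m, which conjugates the cullin activator Nedd8. Ube2g2 was at 9.62, 9.89 and 10.21 in later exercise rats, against 9.07, 9.60 and 9.95 in sedentary rats of 24 weeks, with wide overlap (fold 1.27, log2 0.35, standard error 0.11, adjusted p = 0.0361). Folds were 1.24 for Ube2j2 (adjusted p = 0.0361) and 1.22 for Ube2m (adjusted p = 0.0197), and all 3 turned negative when arrays were scaled to a common median. Several conjugating enzymes with broad roles did not pass: Ube2d1 (log2 0.07), Ube2d3 (0.26, adjusted p = 0.0995) and the ligase Ube4b (0.01). Ube2n was detected on 2 of 7 later exercise and 4 of 7 sedentary arrays and Ube3a on 2 and 6, and neither passed.

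**Figure D2:**
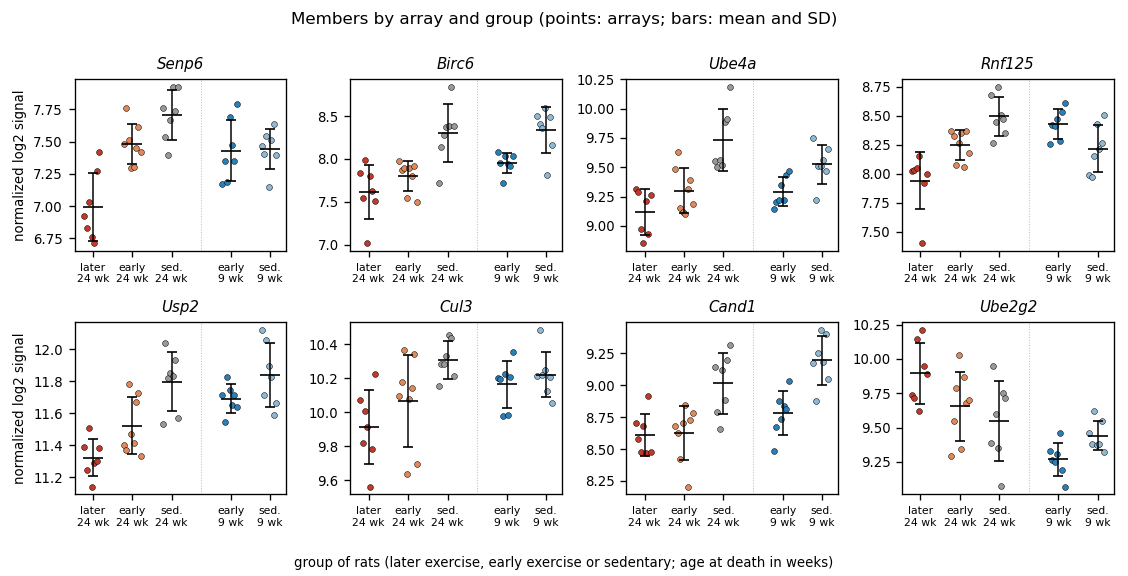
Normalized log2 signal (y axis) of 8 members on every array, by group (x axis), with bars for the mean and SD of the group. The 7 later exercise arrays of Ube4a, Rnf125 and Usp2 all lie below all 7 sedentary arrays of 24 weeks, and Ube2g2 is the 1 member shown that was higher.

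Among the RING ligases 6 of 33 Rnf probes were lower and 1 was higher. Rnf125, known for ubiquitination of the RNA sensor RIG-I, was at 7.40, 8.02 and 8.15 in later exercise rats, against 8.27, 8.47 and 8.75 in sedentary rats of 24 weeks, with no overlap (fold 0.680, log2 -0.56, standard error 0.10, adjusted p = 0.000323). Later exercise replicate 5 was the lowest of these values and stood apart from the other 6. Rnf19a, a RING-between-RING ligase, was at 0.758 times (adjusted p = 0.000703), Rnf111, which promotes TGF-beta signalling, at 0.772 (adjusted p = 0.00438), Rnf138 at 0.764, Rnf217 at 0.784 and Rnf167, a ligase of endosomal membranes, at 0.850. A second Rnf19a probe was detected on 1 array only and was not tested. Rnf181 was the 1 higher member (fold 1.25, adjusted p = 0.0133). It was called in 6 of 11 alternatives, and not after scaling to a common median or with the compared groups alone in the fit. Rnf7, the RING partner of Cul5, was not called (log2 0.12, adjusted p = 0.628).

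None of 24 Trim probes passed. Their median log2 fold change of 0.06 was below 0 when arrays were scaled to a common median, where the median of all probes was -0.28. It was -0.010 with the mean raw signal of each array in the model and -0.0082 with the length score. The muscle ligases of this family were measured well: Trim63, which marks sarcomere proteins for breakdown, was at 10.38 to 10.94 in later exercise rats, against 10.24 to 10.90 in sedentary rats of 24 weeks (log2 0.13, standard error 0.11, adjusted p = 0.458). Trim54, a close relative of Trim63 at the sarcomere, had a log2 fold change of 0.10 (adjusted p = 0.561), and Trim72, a membrane repair protein of striated muscle, of 0.04 (adjusted p = 0.855). Trim55, the third relative, had the highest estimate of any member, at 7.12, 7.78 and 9.51 in later exercise rats, against 6.88, 7.47 and 8.10 in sedentary rats of 24 weeks (log2 0.67, standard error 0.26, adjusted p = 0.0905). Above the sedentary range lay 3 later exercise arrays, and the other 4 lay within it.

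F-box proteins gave a mixed picture. Fbxl5, the iron-regulated receptor that controls iron regulatory protein, was at 11.26, 11.42 and 11.55 in later exercise rats, against 11.56, 11.75 and 11.91 in sedentary rats of 24 weeks, with no overlap (fold 0.794, log2 -0.33, standard error 0.07, adjusted p = 0.00146). Fbxl20 (fold 0.767, adjusted p = 0.00586), Fbxo30 (0.724, adjusted p = 0.0169), known in the mouse as a ligase of muscle wasting, and Fbxo33 (0.755, adjusted p = 0.036) were lower too. Fbxo6, which binds the sugars of misfolded glycoproteins, was higher (fold 1.22, adjusted p = 0.00968), again not after scaling to a common median. The muscle receptor Fbxo32 was close to the floor, at 5.48 to 6.01 with 2 of 7 arrays detected in later exercise rats, against 5.80 to 6.25 with 6 of 7 in sedentary rats of 24 weeks, and did not pass (log2 -0.24, adjusted p = 0.129). Fbxl22, a receptor of the cardiac Z-disc, had a log2 fold change of -0.31 (adjusted p = 0.0758), and none of 6 Fbxw probes passed.

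The cullin scaffolds moved most evenly. All 7 probes lay below 0, from -0.43 to -0.18 with a median of -0.39, and 4 passed: Cul4b (fold 0.742, adjusted p = 0.00208), Cul3 (0.760, adjusted p = 0.00808), Cul1 (0.801, adjusted p = 0.00968) and Cand1 (0.757, adjusted p = 0.0106), which exchanges the substrate receptors of cullin ligases. Cul3 was at 9.56, 9.91 and 10.22 in later exercise rats, against 10.15, 10.28 and 10.46 in sedentary rats of 24 weeks, and Cand1 at 8.47, 8.58 and 8.91, against 8.66, 9.12 and 9.31. For Cul3 1 later exercise array reached the sedentary range, and for Cand1 3 did. Cul2 (log2 -0.39, adjusted p = 0.0558), Cul5 (-0.38, adjusted p = 0.127) and Cul4a (-0.18, adjusted p = 0.11) were not called. Averaged over the 7 probes, each centred on its mean over all arrays, the later exercise arrays ran from -0.37 to 0.03, against 0.0012 to 0.32 in sedentary rats of 24 weeks.

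Of the 33 Usp probes, most of them for deubiquitinases, 9 were lower and none was higher, and 30 lay below 0 (median log2 -0.18). Usp2, a deubiquitinase under control of the circadian clock, was at 11.14, 11.30 and 11.51 in later exercise rats, against 11.53, 11.83 and 12.04 in sedentary rats of 24 weeks, with no overlap (fold 0.719, log2 -0.47, standard error 0.09, adjusted p = 0.000592). Usp14, which sits on the proteasome, was at 11.88, 12.05 and 12.26 in later exercise rats, against 12.29, 12.35 and 12.56 in sedentary rats of 24 weeks, again with no overlap (fold 0.802, adjusted p = 0.00187). Usp45 was lower by more but with a wide range, 7.73 to 8.87 in later exercise rats and 8.51 to 8.93 in sedentary rats of 24 weeks (fold 0.652, adjusted p = 0.00762). Usp8, which sorts receptors at endosomes, was at 0.731 times, Usp5, which takes free ubiquitin chains apart, at 0.776, Usp10 at 0.783, Usp47 at 0.795, and Usp3 and Usp16, which act on histones, at 0.810 and 0.826. A second Usp16 probe was not called (log2 -0.22, adjusted p = 0.0842), and a second Usp3 probe was detected on 2 of 7 later exercise and 0 of 7 sedentary arrays. Usp9x was at log2 -0.17 (adjusted p = 0.41).

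Across the families, 6 members had all later exercise arrays below all sedentary arrays of 24 weeks: Fbxl5, Rnf125, Ube2v2, Ube4a, Usp14 and Usp2 (3.8% of members, against 1.1% of all probes). No member had the opposite, against 0.338% of all probes. All 33 called members kept their direction on each of the 3 chips. The same arrays set the calls, so this is not a separate test. The members called lower came from longer genes than those called higher, with a median genomic span of 42.2 kb and 6.85 kb, against 27 kb for members not called. Over all probes with a symbol the span was 21 kb and over those called lower 48.5 kb, so that longer genes went with lower calls over all probes as well.

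Fewer members were called with array brightness or the length score in the model, but the folds changed to an unequal degree. With brightness in the model the median over the members was -0.08, against -0.00063 with the length score. For Usp probes the medians were -0.19 and 0.011, for Rnf probes -0.07 and 0.05, and for Cul and Cand1 -0.30 and -0.26. The single Birc6 probe was at -0.89 with brightness and at -0.30 with the length score, where it was not called. With the mean raw signal of each array in the model 5 members were called, all lower: Senp6 (log2 -0.53, adjusted p = 0.0362), Ube4a (-0.51, adjusted p = 0.0386), Usp2 (-0.53, adjusted p = 0.0194), Birc6 (-0.89, adjusted p = 0.00858) and Rnf19a (-0.42, adjusted p = 0.028). With the length score in the model 8 were lower and 3 higher, and 5 of the 33 were among these 11: Senp6 (-0.45, adjusted p = 0.0428), Rnf125 (-0.67, adjusted p = 0.00196), Usp8 (-0.66, adjusted p = 0.0103), Usp16 (-0.44, adjusted p = 0.0233) and Ube2g2 (0.53, adjusted p = 0.0328). After scaling to a common median in place of quantile normalization, the median of all probes shifted to -0.28 and that of the members to -0.35. Then 79 members were lower (50%, against 41.9% of all probes) and none higher, so most of this rise in calls was shared by all probes. All 5 higher members turned to below 0 (-0.21 to -0.18), although each stayed above the median of all probes. Without later exercise replicates 3 and 5, 20 members were lower and 2 higher. With only later exercise and sedentary rats of 24 weeks in the fit, 18 were lower and none was higher. Lower members made up 3.16% with brightness (against 0.894% of all probes) and 5.06% with the length score (against 2.14%). The share was 12.7% without replicates 3 and 5 (against 5.31%) and 11.4% with only the 2 groups (against 3.59%). Senp6 was the 1 member called under all 11 alternatives. Raw signal did not overlap between the compared groups (at most 709 in later exercise, at least 715 in sedentary rats), so brightness and training cannot be told apart here. The length score barely overlapped (at most -3.84 in later exercise, at least -3.88 in sedentary rats) and is made from signals of the same arrays. It and training can hardly be told apart either. Whether brightness or transcript length set the differences was not tested.

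**Figure D3:**
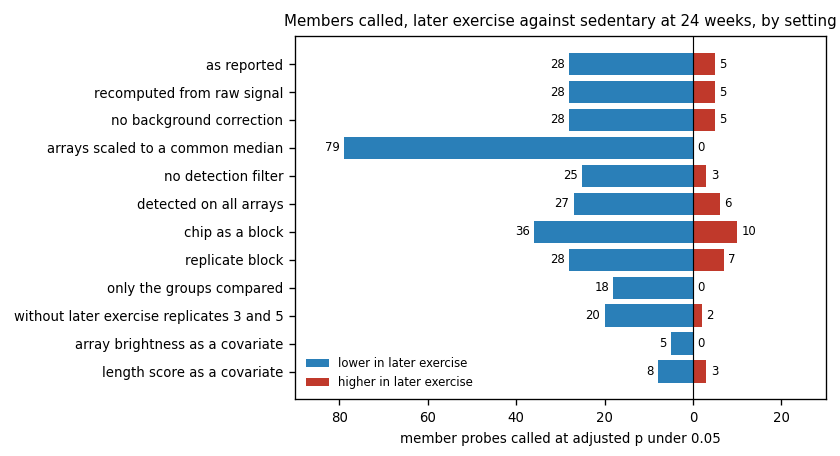
Number of member probes called lower (left) and higher (right) in later exercise against sedentary rats of 24 weeks under each setting (rows). The reported fit gave 28 lower and 5 higher, scaling to a common median 79 and 0, and array brightness as a covariate 5 and 0. Of all probes 7.79%, 41.9% and 0.894% were called lower under these settings.

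Other parts of the same system were taken from lists of genes outside the member families. None of 5 activating enzyme probes passed. The ubiquitin-like protein Nedd8, which switches cullins on, was higher in later exercise than in sedentary rats of 24 weeks (fold 1.26, adjusted p = 0.0136), as 1 of 3 probes of its list. Among cullin partners 2 of 12 probes were lower, the Cul3 adaptor Klhl9 (fold 0.756, adjusted p = 0.0241) and Skp1, which joins F-box proteins to Cul1 (0.856, adjusted p = 0.0312), and of 7 probes of the COP9 signalosome, which takes Nedd8 off cullins, Cops2 was lower (0.826, adjusted p = 0.0137). Of 13 probes for HECT and UBR ligases 5 were lower, Herc2 (0.693, adjusted p = 0.00233), Trip12 (0.699, adjusted p = 0.00482), Ubr2 (0.759), Herc4 (0.781) and Itch (0.832). Among 14 probes of other ligases Pja2 (0.746, adjusted p = 0.000537) and Cblb (0.724) were lower. Of 7 probes of other deubiquitinase families, Josd2 was higher (1.45, adjusted p = 0.00051), and none of 4 SUMO ligase probes passed. Over all probes tested 7.79% were lower and 4.59% higher in this comparison. Single calls were followed under the alternatives for members only, so how these other calls hold there is not shown. Among marker lists of cell types, 2 of 8 macrophage probes, 1 of 7 fibroblast, 1 of 3 adipocyte, 1 of 3 skeletal muscle and 1 of 15 heart muscle probes were higher in this comparison, and none was lower. The macrophage list mean was 9.22 to 9.54 in later exercise rats, against 9.01 to 9.35 in sedentary rats of 24 weeks. Of the fibroblast probes 5 of 7 lay below 0 (median log2 -0.21), and the higher one was Col3a1 (fold 1.44). The part of these cells in the results was not tested.

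Early exercise rats of 24 weeks, compared with the same sedentary rats as above, had no member past the threshold in limma (0 of 158, and 0% of all probes tested). At an unadjusted p of 0.05, 26 members were counted (16.5%, against 10.4% of all probes), 4 higher and 22 lower (5.98% of all probes were lower and 4.42% higher). Ube4a had the smallest p. It was at 9.10, 9.25 and 9.63 in early exercise rats of 24 weeks, against 9.50, 9.56 and 10.18 in sedentary rats of that age, with overlap through the highest early exercise array (fold 0.741, log2 -0.43, standard error 0.10, adjusted p = 0.0962). Birc6 (log2 -0.50) and Cand1 (-0.39) followed, both at an adjusted p of 0.127, then Usp3 (-0.29, adjusted p = 0.158) and Usp14 (-0.22, adjusted p = 0.195). On the higher side the smallest p was that of Ube2s, a conjugating enzyme of the anaphase-promoting complex (log2 0.25, adjusted p = 0.413), followed by Fbxo4 (0.21), Trim6 (0.25), Fbxl6 (0.19) and Senp3 (0.30). The 7 Cul and Cand1 probes had a median of -0.19 and the 33 Usp probes of -0.13, against -0.0040 over all probes. With the length score in the model these medians were -0.10 and 0.02, and that of all 158 members turned to 0.0077 (all probes 0.011), against -0.05 without it. Birc6 was then at -0.21. With chip as a block Ube4a passed, and Birc6 did after scaling to a common median.

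**Figure D4:**
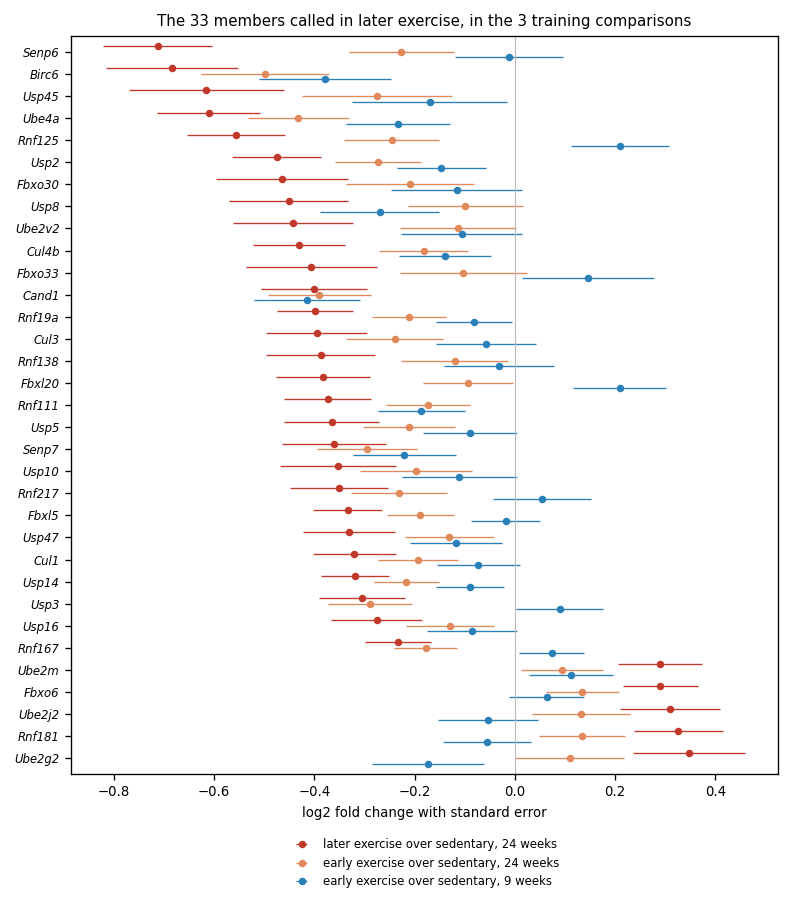
Log2 fold change with its standard error (x axis) of the 33 members called in later exercise (rows), in later exercise and in early exercise over sedentary rats of 24 weeks and in early exercise over sedentary rats of 9 weeks. The comparisons at 24 weeks share their sedentary rats; Rnf125 and Fbxl20 lie at -0.56 and -0.38 in later exercise and at 0.21 each in early exercise rats of 9 weeks.

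Early exercise rats of 9 weeks, killed like the later exercise rats soon after training, also had no member past the threshold against sedentary rats of 9 weeks (0 of 158 in limma, and 0% of all probes). At an unadjusted p of 0.05 there were 14 (8.86%, against 7.92% of all probes), 5 higher (4.63% of all probes) and 9 lower (3.29% of all), and 107 members lay below 0 (67.7%, against 50% of all). Cand1 had the smallest p, at 8.49, 8.81 and 9.03 in early exercise rats of 9 weeks, against 8.88, 9.18 and 9.43 in sedentary rats of that age (fold 0.750, log2 -0.42, standard error 0.11, adjusted p = 0.315). A single early exercise array reached the sedentary range. Usp9x (log2 -0.47, adjusted p = 0.324), Birc6 (-0.38), Cul4a (-0.19) and Usp8 (-0.27) followed on the lower side, and Fbxw4 (0.30, adjusted p = 0.512), Ube2r2 (0.17), Fbxl20 (0.21), Trim41 (0.23) and Rnf125 (0.21) on the higher side. All 7 Cul and Cand1 probes were again below 0, with a median of -0.14. With the length score in the model the median of the members turned to 0.024 (all probes 0.017), against -0.05 without it, and that of Cul and Cand1 was -0.03. Birc6 was then at -0.13. Of the 28 members lower in later exercise 22 lay below 0 here, with a median of -0.09, and of the 5 higher ones 2 lay above 0. Most members lay below 0 here in any case (67.7%, median -0.05). None of these rats entered the later exercise fold changes, but all 5 groups set the spread behind the calls made there.

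The training response in later exercise rats, minus that in early exercise rats of 9 weeks, was tested as an interaction. Each response was taken against sedentary rats of its own age, so a difference between the sedentary groups enters it too. It passed for 3 members, all negative (1.9%, against 0.146% of all probes in either direction and 0.128% negative): Rnf125 (-0.77, standard error 0.14, adjusted p = 0.0276), Senp6 (-0.70, standard error 0.15, adjusted p = 0.0396) and Fbxl20 (-0.59, standard error 0.13, adjusted p = 0.0464). Rnf125 was at 8.25, 8.42 and 8.61 in early exercise rats of 9 weeks, against 7.97, 8.21 and 8.50 in sedentary rats of that age, whereas in later exercise rats it lay below the sedentary range, as given above. For Senp6 the values at 9 weeks were 7.17, 7.35 and 7.79 in early exercise rats, against 7.15, 7.47 and 7.63 in sedentary rats (log2 -0.01). The highest estimate over all 10956 probes was that of Trim55 (1.20, standard error 0.37, adjusted p = 0.162), and Ube2g2 had 0.52 (adjusted p = 0.158). Without later exercise replicates 3 and 5 only Rnf125 passed, and with array brightness as a covariate none did. Directly against early exercise rats of 24 weeks, later exercise rats had 1 member past the threshold (0.633%, against 0.438% of all probes), Senp6, at 6.71, 6.93 and 7.42 in later exercise rats and 7.29, 7.47 and 7.76 in early exercise rats (fold 0.714, adjusted p = 0.0252). This call was lost without later exercise replicates 3 and 5, with array brightness as a covariate and with these groups alone in the fit.

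Between sedentary rats of 24 and 9 weeks, 11 members passed (6.96%, against 6.56% of all probes), 7 higher at 24 weeks (4.43%, against 3.48%) and 4 lower (2.53%, against 3.09%). These shares are close to those of all probes. After scaling to a common median 3 of the 11 were called, Trim54, Ube2l6 and Rnf4, and with these groups alone in the fit 7 of the 11 stayed past the threshold, without Rnf167, Fbxl5, Fbxo6 and Rnf4. Trim54, the sarcomere ligase, was the member with the smallest p. It was at 12.43, 12.61 and 12.82 in sedentary rats of 24 weeks, against 11.81, 12.02 and 12.39 at 9 weeks, with no overlap (fold 1.48, log2 0.57, standard error 0.09, adjusted p = 9.57e-05), and it had log2 fold changes of 0.65, 0.68 and 0.32 on the 3 chips. Trim54 was also called under all 10 alternatives. Fbxo17, a relative of the glycoprotein receptor Fbxo6, was at 6.25, 6.44 and 6.81 in sedentary rats of 24 weeks, against 5.84, 6.01 and 6.20 at 9 weeks, again with no overlap (fold 1.37, adjusted p = 0.00846). These 2 members (1.27%, against 1.2% of all probes) were the ones without overlap. Fbxo31, a receptor for cyclin D (fold 1.41, adjusted p = 0.015), Ube2r2, a conjugating enzyme of cullin ligases (1.23, adjusted p = 0.00367), Usp3 (1.23, adjusted p = 0.0247), Rnf167 (1.19, adjusted p = 0.0141) and Fbxl5 (1.18, adjusted p = 0.031) were higher too. A second Ube2r2 probe near the floor was not called (log2 0.02).

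On the lower side stood Ube2l6, the conjugating enzyme of the ubiquitin-like protein Isg15, at 8.79, 8.93 and 9.71 in sedentary rats of 24 weeks, against 9.17, 9.86 and 9.99 at 9 weeks (fold 0.646, adjusted p = 0.0294). The groups overlapped, with 2 arrays at 24 weeks above the lowest at 9 weeks. Trim6 (fold 0.732, adjusted p = 0.015), Fbxo6 (0.831, adjusted p = 0.0236) and Rnf4, which ubiquitinates proteins that carry SUMO (0.849, adjusted p = 0.0355), were also lower. Rnf4 was detected on 4 of 7 arrays at 24 weeks and 7 of 7 at 9 weeks. Fbxw8 did not pass and was detected on 0 of 7 sedentary arrays at 24 weeks and 3 of 7 at 9 weeks. Among HECT and UBR ligases Ubr2 was higher at 24 weeks (log2 0.35, adjusted p = 0.0244). Markers of fibroblasts were lower at 24 weeks in 5 of 7 probes and of red cells in 3 of 4, and their part in these differences was not tested. The later exercise comparison shares these sedentary rats of 24 weeks, and Fbxl5, Rnf167, Usp3 and Fbxo6 were called in both. For Fbxl5 the level in later exercise rats (median 11.42) and in sedentary rats of 9 weeks (11.47) lay on the same side of sedentary rats of 24 weeks (11.75).

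**Figure D5:**
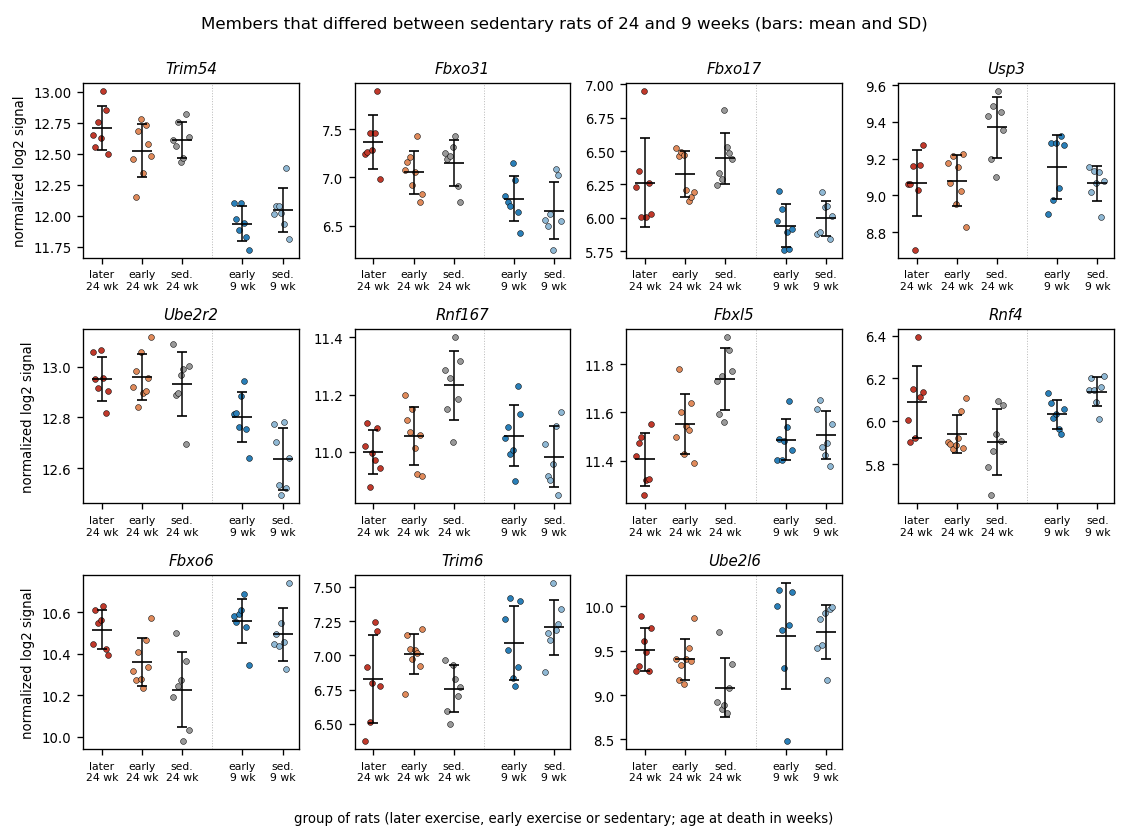
Normalized log2 signal (y axis) on every array, by group (x axis), of the 11 members that differed between sedentary rats of 24 and 9 weeks, with bars for the mean and SD of the group. Trim54 lies at 12.15 or above on all arrays of 24 weeks and at 12.39 or below on all arrays of 9 weeks.

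Members that were not tested numbered 59, of which 27 were detected on no array and 32 on 1 to 6. Just outside the limit, Fbxo46, Rnf216 and Trim31 were detected on 6 arrays, and just inside it Fbxw8 and Trim26 were detected on 7. On all 36 arrays 111 member probes were detected. The heart and muscle genes Rnf207, Fbxo40 and Fbxw7 and the conjugating enzyme Ube2d2 had no member probe under these symbols on the array, so their detection is not known. Ube2r2, Usp3, Usp16 and Uspl1 had 2 tested probes each, and the Uspl1 probes did not pass in later exercise (log2 -0.18 and -0.13). Rnf19a, Cul2, Trim24 and Fbxw11 each had a second probe that was not tested, detected on 1, 4, 0 and 0 arrays.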

How the data were processed

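Total RNA of whole hearts was hybridized to Illumina rat arrays, 1 array per rat. The labels put the 36 arrays on 3 chips, whereas the study's methods describe fewer arrays per chip, so chip here is the batch number of the labels. The authors deposited a raw table, holding for each probe and array the signal intensity of the scanner software and a detection score (headed as a p-value, but rising with signal, so that 0.95 or more was read as detected), and a series matrix of normalized log2 values. Per the submitters' processing notes R 3.2.2 and limma 3.24.15 were used. The deposited log2 values were compared with the raw intensities: normexp background correction with an offset of 16 and quantile normalization gave values within -0.0189 to 0.112 of them, and each of the 36 columns matched its own raw column best.

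Probes detected on at least 7 arrays (10956) were fitted in R 4.3.3 with limma 3.58.1, 1 model over the 5 groups with 31 residual degrees of freedom, and p-values were adjusted over all of them (Benjamini-Hochberg, threshold 0.05). Fold changes are differences of log2 signal. The p-values set them against the spread between rats within groups, estimated over all 5 groups. Litter mates, which the labels do not name, were treated as independent. The number of arrays limits the precision. Probes were named through the platform annotation (13793 with 1 symbol and 8730 unnamed here), and all 158 tested members had a current RefSeq gene. The model was tested on simulated data.

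Members and lists were chosen with earlier results of these data known. Named were the 10 members each way with the largest change among those called in later exercise, the 5 each way with the smallest p in each other comparison, the leading member of each family, and a list of muscle and cullin genes. Members outside that rule (Usp5, Usp10, Usp14, Usp16, Usp47, Rnf111, Rnf138, Rnf167, Rnf217 and others called) were named after their values were seen. Alternatives were other background corrections, normalizations, filters, blocks, covariates and samples.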

Additional observations from a re-analysis of the deposited data

Results flagged for a closer look

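Over the 56 named probes and the 5 groups, 280 sets of values were searched for a single array far from the rest, and 10 were found. Chance alone gives about 1 in 20 groups, so these are no more than chance gives and are listed as values only. In later exercise rats the low values were Rnf125 at 7.40 on replicate 5 (next array 7.92) and Fbxl6 at 7.71 on replicate 6 (next 7.89), and the high value was Fbxo17 at 6.95 on replicate 4 (next 6.35). In early exercise rats of 24 weeks Cul4a was low at 12.02 on replicate 8. In sedentary rats of 24 weeks Trim3 (6.99, replicate 1) and Ube3a (6.55, replicate 5) were high and Ube2d3 (6.23, replicate 1) was low. In early exercise rats of 9 weeks Fbxl6 (7.39) and Cul1 (11.59) were low on the same array, replicate 5. In sedentary rats of 9 weeks Ube2m was low at 10.13 on replicate 6.

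The training response differed between ages, by limma's test of the interaction, for Rnf125 (-0.77, adjusted p = 0.0276), Senp6 (-0.70, adjusted p = 0.0396) and Fbxl20 (-0.59, adjusted p = 0.0464). The early exercise rats of 9 weeks and the later exercise rats differ in age at training and in array brightness, which cannot be told apart. The sedentary groups enter this contrast as well. Rnf125, Senp6 and Fbxl20 were each higher in sedentary rats of 24 than of 9 weeks at limma's unadjusted p of 0.05 (as were 10.1% of all probes), but none passed after adjustment.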

How the results depend on the processing

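The number of members called in later exercise against sedentary rats of 24 weeks was 33 as reported, and 28 to 46 with values recomputed from raw signal, no background correction, other detection filters, chip as a block or the replicate block. It was 79 with arrays scaled to a common median and 18, all lower, with only the 2 groups in the fit. With the length score as a covariate it was 11, and with array brightness 5. Without later exercise replicates 3 and 5 it was 22. Of all probes 12.4% were called as reported, 42.2% with a common median and 5.39% with only the 2 groups. The share was 3.45% with the length score, 1.31% with brightness and 8.02% without replicates 3 and 5. For early exercise rats of 24 weeks it was 1 with a common median and 1 with chip as a block, and for sedentary rats of 24 against 9 weeks 3 with a common median (with only the groups compared 11 were called, 7 of them among the 11 reported). For later against early exercise it was 45 with a common median, where 20.6% of all probes were called. It was 2 with the length score, and 0 without replicates 3 and 5, with only the groups compared or with brightness. For the interaction it was 59 with a common median, where 31.5% of all probes were called. It was 1 with no filter, 1 with only the groups compared, 1 without replicates 3 and 5, 1 with the length score and 0 with brightness. The causes were not tested.

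Replicate numbers do not pair the rats (correlation of same-numbered deviations -0.338 to 0.397). With the replicate block 35 members were called in later exercise, the 33 among them, and 13 between the ages; the counts of the other comparisons did not change.

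Of single members 34 values changed sign, most of them not called in the report. With a common median the log2 fold change in later exercise was -0.18 for Ube2g2, -0.20 for Rnf181, -0.21 for Ube2j2, -0.21 for Fbxo6, -0.20 for Ube2m, -0.35 for Senp2, -0.34 for Ube2d1, -0.35 for Rnf7, -0.094 for Ube2d3, -0.43 for Trim72, -0.50 for Ube4b, -0.36 for Trim63 and -0.22 for Trim54. Against early exercise it was -0.15 for Ube2m and -0.17 for Rnf181, and in the interaction -0.068 for Ube2g2, -0.21 for Rnf181 and -0.23 for Ube2j2. Without later exercise replicates 3 and 5 it was -0.038 for Senp2, -0.055 for Trim72 and 0.092 for Ube2n. With brightness it was -0.062 for Senp2, -0.022 for Rnf7, 0.081 for Trim24, -0.21 for Trim72, -0.066 for Ube4b, 0.030 for Ube3a, -0.0049 for Trim55, -0.10 for Trim54 and 0.12 for Ube2n. With the length score it was 0.057 for Usp9x, 0.043 for Cul4a, -0.18 for Ube4b and -0.11 for Trim63. Probes near the floor, such as Ube2v2, Ube2n, Fbxo32 and Rnf4, are the least well measured.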
